A study of Mus musculus with 15 samples.

Results

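Of 10367 genomic regions occupied by heat shock factor 1 (HSF1) in mouse brown adipose tissue (BAT) after 40 min of cold, 2155 (20.8%) lay between genes, over 1 kb and at most 50 kb from the nearest end of a protein-coding gene. They were found by joining peaks of both libraries of a second wild type pair that overlapped by at least 1 bp on chromosomes 1 to 19, X and Y, keeping joined regions with a peak of both lists, and taking those whose midpoint lay in no protein-coding gene and within these distances. The other 8212 regions fell within 1 kb of a gene end (2707), inside a gene body (4373) or between genes beyond 50 kb (1132). The choice used the position of the peaks and the presence of a peak in the second pair, so the second pair describes the regions. The tests of position use the other 8 libraries, and where they were split by strength the split used ranks in the second pair.

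HSF1 is the transcription factor that activates chaperone genes when proteins misfold. It binds as a trimer to heat shock elements, which are repeats of the letters GAA and TTC in alternating orientation, at promoters and at distal sites that can act as enhancers. BAT is the fat depot that burns lipid and glucose to make heat in the cold, and its adipocytes carry the uncoupling protein UCP1. TXNIP, the protein targeted in the knockout mice, is an arrestin that binds thioredoxin and restrains glucose uptake.

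HSF1 was mapped by chromatin immunoprecipitation and sequencing (ChIP-seq) in 10 libraries, 2 for each of 5 groups. The groups were TXNIP KO mice after 40 min of cold stress, a second WT pair after 40 min, and a WT time course at room temperature (RT), after 40 min (the first WT pair) and after 4 h. Titles of the second WT pair carry the first pair's numbers plus a suffix, and whether both pairs share animals is not stated. BAT of every group was fixed with the crosslinker DSG followed by formaldehyde, and the same antibody was used throughout. The labels do not give age, sex or strain, how the knockout was made or in which cells, or whether libraries of a group came from separate animals, so p-values measure the spread of these libraries alone, which can be technical. Whole BAT holds several cell types, and a peak in few cells and a weak peak in many cannot be told apart.

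No read counts were among the files, only a peak list per library, and depth is therefore unknown. The lists held 919 and 1269 peaks at RT, 2287 and 1670 in the first WT pair, 123 and 351 at 4 h, 10399 and 10633 in the TXNIP KO and 12644 and 14583 in the second WT pair. Peaks of the 1 to 50 kb class made up 16.3% to 24.7% of each list. The fold given for a region is the authors' enrichment of the strongest overlapping peak over its local background. Such folds describe and order regions within a list, and folds of different libraries stand side by side without a test. Peak lists hold no expression, so the tissue could not be checked by its marker genes.

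The letters under the summits could be read for few of the regions, since sequence was at hand only for windows of 300 bases around gene starts (250 before and 50 after, from RefSeq, assembly GRCm38.p6). The strongest summit lay in such a window for 40 of the 2155 regions, at the start of a long noncoding RNA (lncRNA) in 39 and of the coding gene Irf2bp2 in 1. The first 4 sequences below are 100 bases of each window that held 3 alternating units, shown because they place the letters close to the summit. The other pair are the whole windows of the strong regions nearest to Atf3 and Zbtb38, each with 2 matches of the shorter pattern of 2 units. Capitals mark the matches, and sequences read 5′ to 3′ on the strand of the lncRNA.
A330023F24Rik, chr1:195017349-195017448, plus strand: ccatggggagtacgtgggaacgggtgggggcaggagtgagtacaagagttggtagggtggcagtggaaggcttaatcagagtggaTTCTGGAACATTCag
Gm32652, chr1:164899710-164899809, minus strand: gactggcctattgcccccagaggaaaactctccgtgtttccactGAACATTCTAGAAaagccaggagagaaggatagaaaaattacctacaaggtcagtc
Gm34483, chr2:102942127-102942226, plus strand: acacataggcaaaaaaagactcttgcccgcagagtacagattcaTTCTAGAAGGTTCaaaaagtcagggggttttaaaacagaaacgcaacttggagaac
Gm35853, chr15:101395566-101395665, plus strand: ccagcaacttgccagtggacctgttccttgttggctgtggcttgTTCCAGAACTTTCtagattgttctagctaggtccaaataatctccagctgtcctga
D730003I15Rik, chr1:191224204-191224503, plus strand: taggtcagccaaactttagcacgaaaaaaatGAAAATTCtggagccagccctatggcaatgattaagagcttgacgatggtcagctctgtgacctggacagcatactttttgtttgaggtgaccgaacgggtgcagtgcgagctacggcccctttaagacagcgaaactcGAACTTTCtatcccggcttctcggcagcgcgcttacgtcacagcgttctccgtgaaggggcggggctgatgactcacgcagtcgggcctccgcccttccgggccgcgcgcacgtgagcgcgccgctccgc
E030011O05Rik, chr9:96752782-96753081, minus strand: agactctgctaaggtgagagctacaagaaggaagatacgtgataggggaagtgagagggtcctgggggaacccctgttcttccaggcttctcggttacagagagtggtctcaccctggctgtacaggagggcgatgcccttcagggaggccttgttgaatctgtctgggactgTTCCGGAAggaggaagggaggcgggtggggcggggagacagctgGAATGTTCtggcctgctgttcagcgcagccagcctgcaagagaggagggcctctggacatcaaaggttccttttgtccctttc

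In the first 4 sequences the centre of the 13-letter match lay 26 bases from the summit at A330023F24Rik, 18 at Gm32652, 15 at Gm34483 and 38 at Gm35853. The motif searched was GAA, TTC and GAA, or TTC, GAA and TTC, with 2 bases of any kind between units, a pair of patterns that covers both strands. These windows belong to the regions nearest to Cd46, Xcl1, Cd44 and Krt7, at 21447, 32285, 40620 and 16811 bp. Counted by region, the match was present in 4 of the 40 intergenic regions at 1 to 50 kb with a summit in a window (10%). The share was the same in the 20 such regions beyond 50 kb (10%). It was present in 3.55% of 197 such regions in gene bodies and 2.97% of 975 at gene ends. Counted by single window, it was present in 0.603% of all 32851. The units differ, since the summit of a region can lie in several windows. The shorter letters GAANNTTC or TTCNNGAA, which are part of every 13-letter match, were found in 22 of the 40 (55%), against 50% beyond 50 kb, 26.4% in gene bodies, 22.1% at gene ends, 15.1% of all windows and 17.6% of windows of noncoding genes.

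The short letters were more frequent under strong regions. Among the 20 stronger of these 40 regions, by rank in the second pair, 17 held them in a window (85%), against 5 of the 20 weaker ones (25%). The window of D730003I15Rik, nearest to the stress-inducible factor Atf3, had folds of 22.2 and 19.6 at RT, 27.8 and 24.2 in the first WT pair, 5.28 in 4 h replicate 1 alone, 86.6 and 87.2 in the TXNIP KO and 112 and 120 in the second WT pair. The start of Malat1, an abundant nuclear lncRNA, carried a region with folds of 44.6 and 40.7 in the TXNIP KO and 68.7 and 75.3 in the second WT pair, and neither set of letters was in its window. These 40 are a small and selected share of the intergenic regions, and a match describes letters, not binding.

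The strong regions described next lay beside genes of varied function. The region 2791 bp from Ssc4d, a scavenger receptor family gene, had folds of 44.7 and 40.2 at RT, 60.2 and 61.2 in the first WT pair, 8.57 and 16.2 at 4 h, 240 and 244 in the TXNIP KO and 243 and 258 in the second WT pair. Dusp6, the phosphatase that switches off ERK kinases, had a region 2475 bp away with folds of 15.2 and 23.3 at RT, 52.2 and 40.4 in the first WT pair, 12.4 and 27.8 at 4 h, 159 and 152 in the TXNIP KO and 219 and 215 in the second WT pair. At Dusp6 the 4 h values overlapped those at RT, while at Ssc4d both 4 h values lay below them. Trafd1, a feedback regulator of innate immune signalling, had a region at 2747 bp with folds of 17.1 and 19.5 at RT, 36.3 and 33 in the first WT pair, 12 and 20.9 at 4 h, 163 and 159 in the TXNIP KO and 195 and 212 in the second WT pair.

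The other leading regions lay at 2173 to 32493 bp. They were nearest to C87436 (2173 bp), Srrm3 (4175 bp), Zcchc13 (8565 bp), Shf (12268 bp), Irf2bpl (12846 bp), Gm52006 (14433 bp), Ccng2, which encodes cyclin G2 (20362 bp), Cecr2, a bromodomain gene (21798 bp), and Pomgnt2, a glycosyltransferase gene (32493 bp). Their folds ranged from 96.2 to 159 in the TXNIP KO and from 117 to 241 in the second WT pair. Shf was the region among these with both knockout folds (138 and 143) above both folds of the second WT pair (126 and 131). Cecr2, with folds of 26.6 and 27.8 at RT, was called in neither 4 h list.

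**Figure D1:**
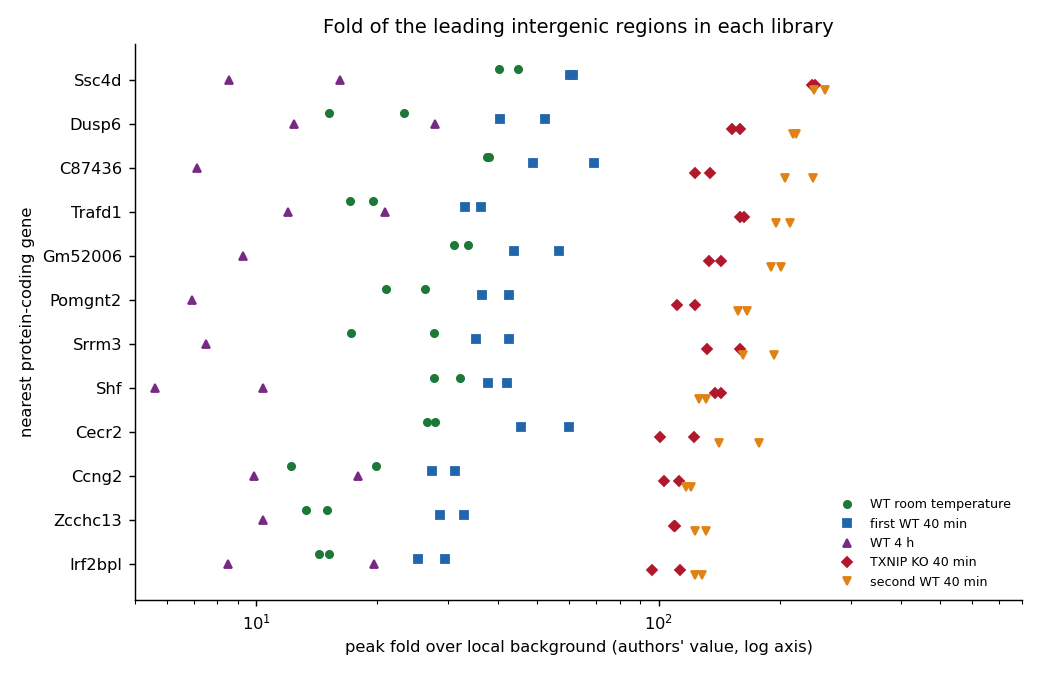
Fold of the leading intergenic HSF1 regions in each library, by nearest protein-coding gene. The horizontal log axis is the authors' peak fold over local background, each point is 1 library, colours and shapes mark the groups, and a library without a peak has no point. At Ssc4d the 4 h folds of 8.57 and 16.2 lie below all others, and both points of the first WT pair lie above both RT points for each gene shown.

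Most of the 2155 regions were weak. Their median folds in the second pair were 7.01 and 7.55, against 6.28 and 6.52 for all 10367 regions, and their median width was 780 bp (323 to 6944 bp). The median distance to a gene end was 13314 bp, from 1003 bp near Per1, 1004 bp near Slc11a1 and 1005 bp near Ccl3 to 49691 bp near Zfp831, 49779 bp near Olfr987 and 49807 bp near Phyhipl. The density was 4.46 regions per Mb of intergenic sequence at 1 to 5 kb, 3.50 at 5 to 10 kb, 3.51 at 10 to 20 kb, 3.19 at 20 to 30 kb, 2.97 at 30 to 40 kb and 2.86 at 40 to 50 kb. The median second pair folds were 6.57 and 6.86 at 1 to 5 kb and 7.57 and 8.15 at 40 to 50 kb.

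Both ends of genes were close to regions. Where the strand of the nearest gene was known, 854 regions were nearest to a start and 779 to a 3′ end (52.3% starts), while 54.0% of the intergenic bases in this range are nearest to a start. Regions nearest to a start were called in 81.1% and 82.2% of cases in the TXNIP KO and in 25.9% and 17.9% in the first WT pair. Regions nearest to a 3′ end were called in 81.6% and 80.5% in the TXNIP KO and in 24.3% and 18.7% in the first WT pair. A lncRNA covered the midpoint of 489 regions (22.7%), against 27.03% of the regions beyond 50 kb.

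The 23 regions just inside the lower bound, up to 1100 bp, had median folds of 7.55 and 7.38 in the second pair, and the 14 intergenic regions at 900 to 1000 bp had 7.17 and 6.69. At the upper bound, the 18 regions over 49000 bp had 7.56 and 8.58, and the 13 regions up to 1000 bp beyond it had 8.16 and 10.1. The midpoint placed the regions, and 11 of them had their summit within 1000 bp of a gene end and 11 touched a coding gene with their span.

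**Figure D2:**
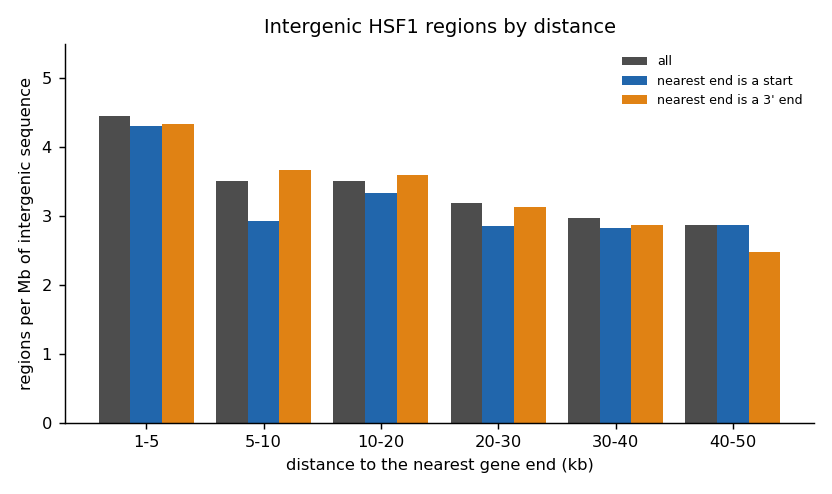
Density of intergenic HSF1 regions by distance to the nearest gene end (kb, horizontal axis), in regions per Mb of intergenic sequence (vertical axis), for all regions and for those nearest to a start or to a 3′ end. The density of all regions is 4.46 per Mb at 1 to 5 kb and 2.86 per Mb at 40 to 50 kb, and at 5 to 10 kb it is 2.94 for starts and 3.67 for 3′ ends.

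The 2155 regions had 1562 nearest genes, 7.14% of the 21887 protein-coding genes. A single region was nearest to 1206 genes, 227 genes had 2 regions and 129 had 3 or more, so that 1.63% of all genes had at least 2. Naming a region by its nearest gene does not show that it acts on that gene. The gene lists described next were chosen with earlier results of these data known, and no test was run on them.

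Adipocyte transcription and lipid genes were the list with most intergenic HSF1 regions per length of sequence. Of 32 genes, 19 (59.4%) were nearest to a region and they had 42 regions, which is 38.0 per Mb of their own intergenic sequence at 1 to 50 kb, against 3.49 per Mb for all genes. The median second pair folds of the 42 were 6.29 and 7.03, against 7.01 and 7.55 for all 2155 regions. Lpl, the lipoprotein lipase that frees fatty acids for uptake, had the strongest, with folds of 37.4 and 48.6 in the TXNIP KO and 82.4 and 94.3 in the second WT pair. In the time course that region was called in RT replicate 2 (8.24), in both first 40 min libraries (22 and 16.1) and in both 4 h libraries (6.66 and 8.93).

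Pparg, the nuclear receptor that directs adipocyte differentiation, had 6 regions between 5514 and 21319 bp. The strongest (chr6:115500889-115502116) had folds of 10.5 and 12.9 at RT, 13 and 12 in the first WT pair, 31.9 and 24.3 in the TXNIP KO and 46.8 and 52.3 in the second WT pair, and 4 h replicate 2 also called it (8.93). The other 5 were called in no WT library of the time course, with second pair folds from 3.98 to 8.58. Cebpb, a factor of early adipocyte differentiation, had 7 regions between 2440 and 32802 bp, all weak, with highest folds of 13.9 and 13.6 in the TXNIP KO and 10.1 and 14.1 in the second WT pair. Lipe, Mgll and G0s2, which encode lipases and an inhibitor of lipolysis, had folds of 12.2 to 30.1 in the TXNIP KO and 14.1 to 24.5 in the second WT pair, and Klf15 had 8.54 and 8.74 in the TXNIP KO and 12.1 and 18 in the second WT pair.

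Thermogenic genes had fewer than the adipocyte list. Of 30 genes, 8 (26.7%) were nearest to a region, with 13 regions or 12.9 per Mb. The median second pair folds of the 13 were 6.79 and 6.35. Ucp1, the uncoupling protein, had a region at 4539 bp with folds of 8.51 and 7.11 in the TXNIP KO and 6.79 and 6.14 in the second WT pair, and another at 2305 bp with 5.81 and 7.11 in the TXNIP KO and 7.37 and 6 in the second WT pair. In the time course, replicate 1 of the first WT pair alone called the region at 4539 bp (3.62), and no library called the nearer one. Fgf21, a hormone induced by cold, had folds of 6.73 and 5.82 in the first WT pair, 24.1 and 18.6 in the TXNIP KO and 25.7 and 21.4 in the second WT pair, with no peak at RT or 4 h. The regions of Ppara, Kcnk3, Otop1 and Cox8b were not called at RT or 4 h.

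Immediate early and cAMP response genes, which respond within minutes to stimulation, had 18 of 28 members (64.3%) nearest to a region, with 34 regions or 24.3 per Mb. The median second pair folds of the 34 were 6.27 and 6.43, against 7.01 and 7.55 for all 2155 regions. Both first pair libraries called 7 of the 34, while they called 16.4% of the 2155 regions and 14.1% of all 10367. Besides Dusp6 and Atf3, Egr1 had folds of 8.11 and 8.40 at RT, 15.7 and 10.9 in the first WT pair, 40.7 and 40 in the TXNIP KO and 52.4 and 51.3 in the second WT pair. At Egr1 both first pair values were above both RT values, and no 4 h library called the region. Dusp4, Klf6 and Ier2 had folds of 17 to 24 in the TXNIP KO and 18.1 to 36.9 in the second WT pair.

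Heat shock chaperones, whose promoters are the textbook targets of HSF1, had 7 regions in this distance range. Of 32 genes, 6 (18.8%) were nearest to one, against 7.14% of all genes, and the density was 10.8 per Mb, against 3.49 for all genes. Of 22 organelle and chaperonin genes 0 were. The median second pair folds of the 7 heat shock chaperone regions were 5.38 and 6.69. Hsp90aa1, an inducible HSP90, had a region at 2888 bp with folds of 11.6 and 8.35 in the first WT pair, 29.1 and 25.9 in the TXNIP KO and 41.2 and 42.2 in the second WT pair, with 7.50 in 4 h replicate 2 and no RT peak. The regions of Bag3, Dnaja4, Hspa1b, Hspa8 and Hspb8 had second pair folds from 2.74 to 16.9. Hspa1b is a near-identical copy of its neighbour Hspa1a, so reads there may be misplaced.

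Txnip, the gene targeted in the knockout, had 3 regions, and its list of insulin and glucose genes had 8 of 25 genes (32%) with 11 regions or 8.68 per Mb. The region at 6631 bp (chr3:96550182-96552471) had folds of 6.59 and 6.90 at RT, 12.1 and 12.8 in the first WT pair, 39.7 and 48 in the TXNIP KO and 55.2 and 53 in the second WT pair. The regions at 2714 and 2563 bp had 9.15 and 8.36, and 5.60 and 3.75, in the TXNIP KO, and 9.95 and 12, and 4.78 and 4.80, in the second WT pair. All 3 regions were thus called in both knockout libraries, and they lie outside the gene, so they do not check the deletion. Foxo1, Pik3r1, Sik1, Foxo3 and Irs2 had second pair folds from 3.38 to 17.7, and Irs2 was called in neither knockout library. The 11 regions of the list had median second pair folds of 5.38 and 4.80.

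Circadian clock genes had 4 of 18 members (22.2%) nearest to a region, with 7.98 regions per Mb, and Nfil3, a clock-output repressor, was the one called at RT (5.48 and 4.1). The 5 clock regions had median second pair folds of 9.36 and 8.06. Endothelial markers had 8 of 13 (61.5%), with 15 regions or 22.1 per Mb, and median second pair folds of 7.76 and 7.72. Vwf, the clotting factor carrier of endothelium, had folds of 9.30 and 6.64 at RT, 18.8 and 17.3 in the first WT pair, 56 and 43.9 in the TXNIP KO and 50.9 and 57.6 in the second WT pair. Tie1, Cldn5, Kdr, Egfl7 and Pecam1 had second pair folds from 7.37 to 21.5. Skeletal muscle markers had 1 of 16 (Des, folds 3.98 and 4.65 in the second WT pair) and leukocyte markers 0 of 14, and the part of each cell type in these peaks was not tested.

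Some genes had many regions. Irf1, an interferon-responsive factor, had 10, between 5239 and 40563 bp from its ends, of which 2 were strong: chr11:53784663-53787061 had folds of 54.4 and 50.8 in the TXNIP KO and 70.1 and 67.7 in the second WT pair, and chr11:53805538-53807123 had 67.2 and 63.6 in the TXNIP KO and 61.7 and 87.8 in the second WT pair. Rab11fip4 had 8, and Cebpb, Irf2bp2 and Irf2bpl had 7 each. Genes with 6 regions were Amotl2, Armc12, Ccng2, Frmd8, Gclc, Gmpr, Lpl, Pparg, Spry4 and Trib1. These genes were picked after their counts were seen. At Irf2bpl, 3 and 4 of the 7 regions were called at RT and all 7 in both knockout libraries. At Irf2bp2 none of the 7 was called in the WT time course and 5 were in each knockout library. Of all 10367 regions, 8.58% and 11.9% were called at RT and 21.4% and 15.6% in the first WT pair. The shares of all regions were 1.05% and 3.29% at 4 h and 77.8% and 78.4% in the TXNIP KO.

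In the libraries that did not choose them, the intergenic regions were called a little more often than the other regions. At RT 208 and 302 were called (9.65% and 14.0%, against 8.58% and 11.9% of all 10367 regions). In the first WT pair 535 and 397 were (24.8% and 18.4%, against 21.4% and 15.6% of all), and at 4 h 19 and 86 were (0.882% and 3.99%, against 1.05% and 3.29% of all). In the TXNIP KO 1751 and 1758 were (81.3% and 81.6%, against 77.8% and 78.4% of all).

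Over these 8 libraries the share exceeded that of the other regions by 2.61 ± 1.75 percentage points (SD, n = 8), higher in 7 of 8 (adjusted p = 0.0208, two-sided exact sign-flip permutation test, adjusted over 4 tests). The difference was 3.74 points to regions at gene ends (7 of 8 libraries, adjusted p = 0.0313, exact permutation test), 1.91 points to gene bodies (8 of 8, adjusted p = 0.0208) and 2.64 points to regions beyond 50 kb (7 of 8, adjusted p = 0.0208). In each comparison with 7 of 8 libraries the exception was 4 h replicate 1, the shortest list. The call against gene ends was lost (adjusted p = 0.0625, exact permutation test) without RT replicate 2, first pair replicate 1 or 2, or TXNIP KO replicate 1 or 2, with differences of 2.98 to 3.90 points. With group means as units, 4 values cannot reach the threshold, and adjusted p was 0.167 to 0.25 (exact permutation test).

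Strength moved with this difference. The intergenic regions stood higher in the second pair lists, and among regions ranked above the median of all regions the difference to the others was 0.44 points (4 of 8 libraries, adjusted p = 0.211, exact permutation test). There, fewer intergenic regions than gene end regions were called, by -3.07 points (lower in 8 of 8, adjusted p = 0.0156, exact permutation test). The differences to gene bodies (1.58 points, 8 of 8 libraries, adjusted p = 0.0156, exact permutation test) and beyond 50 kb (2.21 points, 7 of 8, adjusted p = 0.0208) passed the threshold. Below the median the 4 differences were 0.32 to 1.43 points with adjusted p of 0.0938 to 0.492 (exact permutation test).

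In 4 equal groups of intergenic regions by strength, shares differed widely between groups and mostly little from those of all other regions pooled. The pooled regions join the 3 other classes, whose differences above the median had opposite signs, so this comparison cannot show how single positions differ. In the strongest group the gap was wider in RT replicate 1 (36.7% against 39.0%) and 4 h replicate 1 (3.34% against 5.09%). In 4 h replicate 2 it went the other way (15.6% against 14.8%). In the strongest group 82.9% and 67.2% were called in the first WT pair, against 82.6% and 66.2% of other regions of the same ranks. In the next group 14.5% and 5.94% were, against 14.7% and 5.56%. In the weakest group 51.8% and 53.6% were called in the TXNIP KO, against 50.6% and 52.0% of the others.

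**Figure D3:**
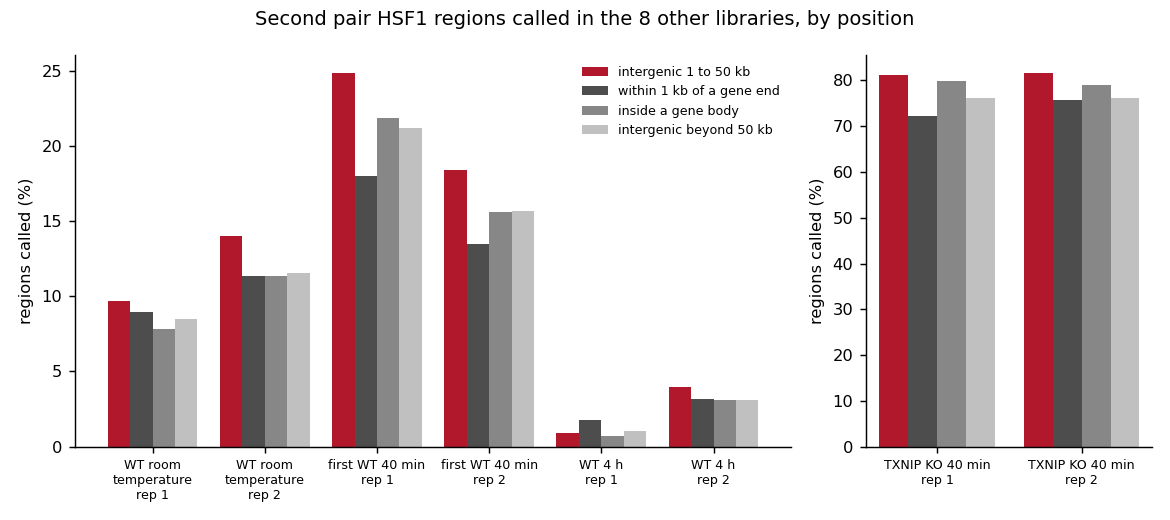
Share of second pair HSF1 regions called in each of the other 8 libraries (vertical axis, percent, separate scales in both panels), by position class. Each bar is 1 library and class. The intergenic 1 to 50 kb bars reach 24.8% and 18.4% in the first WT pair and 81.3% and 81.6% in the TXNIP KO, the highest class in 7 of the 8 libraries.

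**Figure D4:**
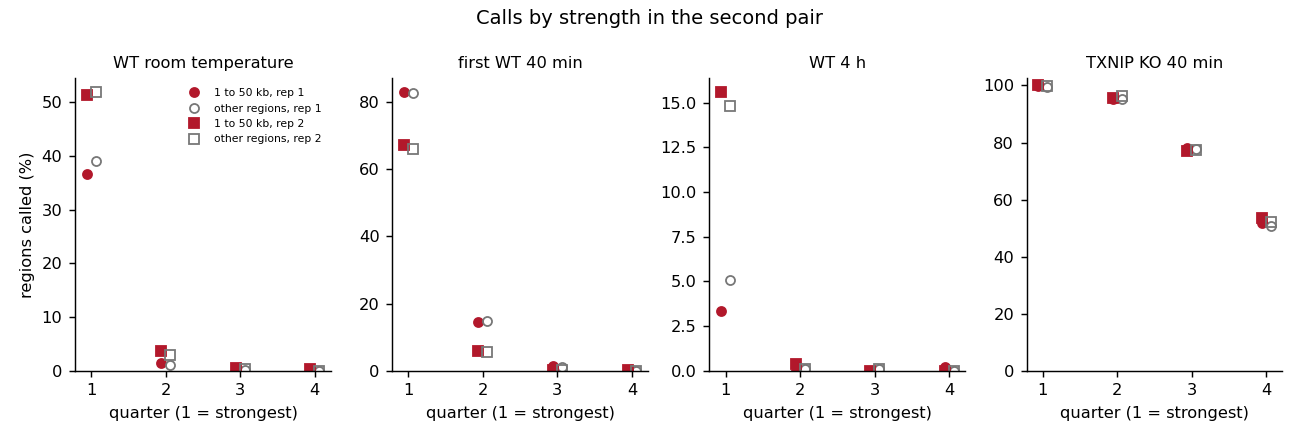
Share of regions called (vertical axis, percent, own scale in each panel) in 4 equal groups of strength in the second pair (horizontal axis, 1 is the strongest), for intergenic regions at 1 to 50 kb (filled) and other regions (open), with replicates as circles and squares. Filled and open symbols mostly lie close together, as with 82.9% and 82.6% in the strongest group of first pair replicate 1. In 4 h replicate 1 that group has 3.34% (filled) and 5.09% (open).

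Of the 2155 regions, 15 were called in all 8 libraries (0.696%, against 0.916% of all regions) and 220 in 0 (10.2%, against 13.5% of the other regions). The largest group, 967 regions, was called in 2 of 8 (44.9%, against 45.5% of the other regions). Both RT libraries called 181 regions (7.64% of all regions were so called), both first pair libraries 354 (14.1% of all), both 4 h libraries 17 (1.0% of all) and both TXNIP KO libraries 1575 (69.1% of all). Neither RT library called 1826 regions (87.1% of all were so), neither library of the first WT pair 1577 (77.1% of all) and neither 4 h library 2067 (96.7% of all).

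The time course first asks which regions carry HSF1 after 40 min of cold and not at RT. Every region was chosen by peaks of the second WT pair at 40 min, so a site occupied at RT alone could not enter. This choice can favour 40 min in the shares and counts below, and it holds for all 10367 regions too. The share of intergenic regions called was 21.6% ± 4.53 in the first WT pair and 11.8% ± 3.08 at RT (SD, n = 2 each), a difference of 9.79 points. The exact permutation test gave p = 0.333, the smallest that 2 against 2 libraries allow. Called in both first pair libraries and in neither RT library were 102 regions (4.73%, against 3.86% of all regions), and 1 was called the other way (0.0482% of all). That 1 is 0.552% of the 181 regions in both RT libraries, against 0.631% among all regions. Without RT replicate 2 the gained regions numbered 171 and without first pair replicate 2 they numbered 246, and lost regions numbered 28 and 7 without RT replicates 1 and 2 and 7 without first pair replicate 1. Single libraries thus decide the number of lost regions.

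In the first WT pair the median folds of the gained regions were 6.28 and 6.12, while the 174 regions that both RT libraries called too had medians of 15.7 and 13.6. The strongest were nearest to Gmpr, a purine enzyme gene (19.3 and 14.2), Ctif, a translation initiation factor gene (16.4 and 15.9), Ezr, which links membrane and actin (13.5 and 12.2), Plpp3, a lipid phosphatase gene (11.8 and 10.9), a second region of Dusp6 (11.8 and 9.74) and Enpp5 (10.3 and 8.47). In the other libraries at 40 min all 6 were strong, with folds of 22.5 to 46.1 in the TXNIP KO and 38.8 to 78.1 in the second WT pair. The list lengths differ between these groups, and when every list was limited to its 919 strongest peaks, 22 regions were gained (1.02%, against 0.916% of all) and 13 lost (0.603%, against 0.540% of all). The difference in shares was then 0.116 points (p = 1, exact permutation test).

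The next question is what remains at 4 h. The share called was 2.44% ± 2.198 at 4 h and 11.8% ± 3.08 at RT (SD, n = 2 each), a difference of -9.40 points (p = 0.333, exact permutation test). Of the 181 regions called in both RT libraries, 114 were called in neither 4 h library (63.0%, against 65.3% of all such regions and 4.99% of all 10367), and 1 region was gained (0.0289% of all). Without RT replicate 1, 223 were lost, and without 4 h replicate 1, 9 were gained, against 2 without RT replicate 2. Regions lost at 4 h had median RT folds of 7.63 and 8.34, and the 15 called in both 4 h libraries had 13.1 and 14.6.

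Against the first WT pair the difference at 4 h was -19.2 points (p = 0.333, exact permutation test). Of 354 regions called in both first pair libraries 270 were called in neither 4 h library (76.3%, against 77.3% of such regions and 10.9% of all), and 0 were gained (0.00965% of all). Without first pair replicate 2 the lost regions numbered 450, and without 4 h replicate 1, 1 region was gained. The 4 h lists are short, and when every list was limited to its 123 strongest peaks, 5 regions were gained (0.232%, against 0.203% of all) and 8 lost (0.371%, against 0.357% of all) against RT. Against the first WT pair 4 were then gained (0.186%, against 0.193% of all) and 8 lost (0.371%, against 0.395% of all). The difference in shares was then 0.0928 points against RT and 0.0696 points against the first WT pair, the other direction in both cases.

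Setting TXNIP KO beside WT at 40 min of cold asks whether HSF1 occupies the same sites without TXNIP. Since the second pair chose the regions, shares were also taken over 360 regions of the same class found in the same way in the first WT pair (24.3% of its 1483 regions). All 360 were called in both TXNIP KO libraries and in both libraries of the second WT pair (p = 1, exact permutation test), as were 99.8% and 99.9% of the other first pair regions in the TXNIP KO and 99.9% in each second pair library. With every share at or near its upper limit in these long lists, this measure could not show a difference between genotypes. Among the 2155 regions, 221 were in neither TXNIP KO list (10.3%, against 12.9% of all regions), and with 1 knockout library alone 397 and 404 were not called. In the opposite direction, of 1764 regions of the class in both knockout lists, 39 (2.21%) had no peak in the second WT pair, against 2.49% of all knockout regions.

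Regions missing from the knockout were weak ones. Their median folds in the second WT pair were 4.38 and 4.33, against 9.36 and 9.60 for those called in both knockout libraries, and of the strongest 539 regions none was missing. The strongest missing regions were nearest to BC107364 (11.1 and 11.1 in the second WT pair), Ptcd2 (8.92 and 9.23), Chsy3 (8.16 and 12.2), Adgrg6 (10.8 and 8.58), Dph5 (9.16 and 8.40) and Slc24a3 (7.57 and 11.3). No library of the time course called any of these 6. The regions of BC107364 (chr3:96488956-96489491) and Dph5 (chr3:115844397-115845032) lie on chromosome 3, as does Txnip (chr3:96557957-96561857). The BC107364 region is far closer to Txnip than the Dph5 region. Whether the distance to Txnip bears on either was not tested.

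For 1575 intergenic regions called in all 4 libraries, folds could be set side by side. The median log2 ratio of knockout over second WT folds was -0.19, against -0.16 for all 7160 such regions, and 5% to 95% of the intergenic ratios lay between -0.79 and 0.35. The typical size of the log2 ratio between genotypes was 0.26, against 0.24 between replicates of either pair. Percentiles were then taken in each library among the 7160 regions called in all 4. By these, 335 intergenic regions were higher in both knockout libraries than in both second pair libraries (21.3%, against 23.6% of all). In the other direction, 359 were lower (22.8%, against 21.9% of all). With folds as deposited, 153 were higher (10.7% of all regions were) and 657 lower (38.9% of all). With folds over the median of each list, 312 were higher (22.6% of all) and 405 lower (23.8% of all).

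Past a log2 ratio of 1 in either direction were 36 intergenic regions (2.29%, against 1.98% of all). The lowest ratio was at a region that lies 22123 bp from Lrig2, a membrane protein gene that modulates growth factor signalling, at chr3:104431017-104432698. Its folds were 14.1 and 11.9 at RT, 17.2 and 15.0 in the first WT pair, 4.77 and 3.75 in the TXNIP KO and 67.3 and 65.9 in the second WT pair, with no 4 h peak. The log2 ratio of -3.98 was the lowest of all 7160 regions. The next was -2.31 among all regions and -1.82 among intergenic ones, near Polr1a. At Lrig2 the log2 difference between replicates was 0.35 in the knockout and 0.03 in the second WT pair.

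The summit of the Lrig2 region was also in another place in the knockout. In the TXNIP KO libraries it lay at 104431320 and 104431240, and in the 6 WT libraries that called the region it lay between 104431986 and 104432018. The knockout summits were thus 680.5 and 760.5 bp from the mean of the second WT pair, and those of the other WT libraries at most 17.5 bp. Among 1219 intergenic regions whose replicate summits lay within 100 bp in both pairs, the genotypes' summits were over 300 bp apart in 7 (0.574%, against 0.434% of all regions). The other 6, near Usp6nl, Akr1b8, Ptpdc1, Cd300e, Heg1 and Anxa11, had log2 ratios between -0.67 and -0.13. The Lrig2 region was singled out after its values were seen, and it lies 7872 kb from Txnip on the same chromosome. Whether the distance to Txnip bears on this was not tested.

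The highest log2 ratio, 3.16, rested on a peak whose summit lay outside the region. The region 3631 bp from Polr3gl, 14.3 kb from Txnip, had folds of 78.4 and 79.4 in the TXNIP KO and 7.83 and 9.90 in the second WT pair. In the knockout a single peak spanned it and its neighbour at 1338 bp, whose folds were 78.4 and 79.4 in the TXNIP KO and 98.8 and 119 in the second WT pair, and the knockout summits lay in that neighbour. With all 4 summits required inside the region, 1561 of 1575 regions remained, of which 329 (21.1%) were higher and 357 (22.9%) lower in the knockout, and the highest log2 ratio was 0.93.

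**Figure D5:**
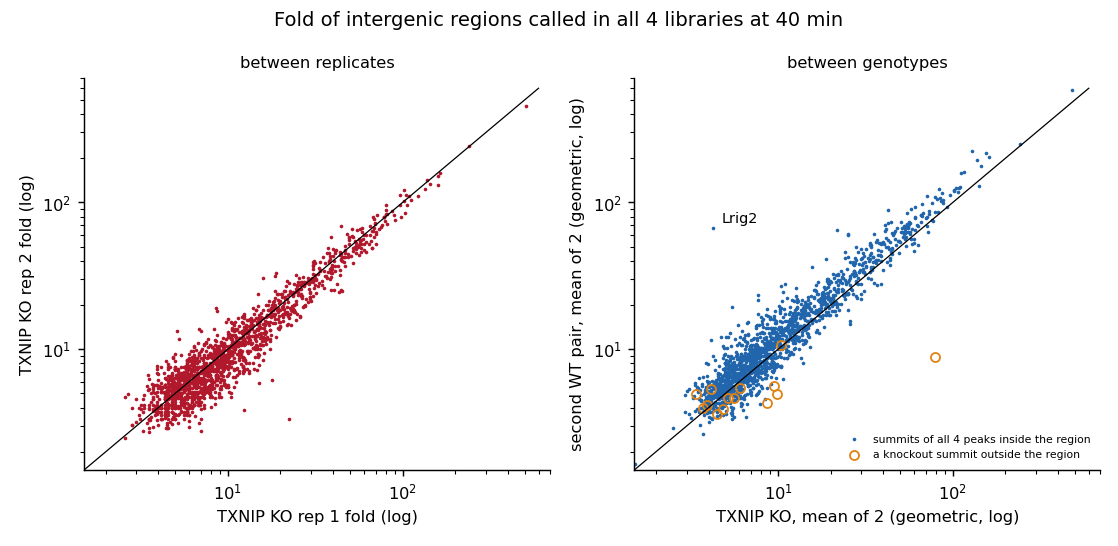
Folds of the 1575 intergenic regions called in all 4 libraries, on log axes with the line of equality. Left, TXNIP KO replicate 1 (horizontal) and replicate 2 (vertical), right, the geometric mean of the TXNIP KO folds (horizontal) and of the second WT pair (vertical), where open circles mark regions with a knockout summit outside. The Lrig2 region stands apart at 4.77 and 3.75 in the TXNIP KO and 67.3 and 65.9 in the second WT pair.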

How the data were processed

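The submitters' processing notes list the tools MACS2 2.2.7.1, BWA 0.7.17, deepTools 3.4.3, Trim Galore 0.6.0 and SAMtools and the builds GRCm38.p6 and mm10. Read filters and the input set against each library were not stated. The authors deposited a narrow peak list per ChIP library, not pooled over replicates. Each deposited list gives per peak a fold ratio over local background, −log10 p and −log10 q (smallest 1.30) as the peak caller wrote them, a summit position and an integer score, which was not used. Files of the 5 inputs were not analysed here, and 1 input has conflicting labels.

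Regions were joined and placed by RefSeq gene ends (21887 protein-coding genes, GRCm38.p6) with Python 3.11.15, numpy 2.4.6 and pandas 2.3.3. A region was called in a library if a peak shared at least 1 bp with it, and its fold is that of the overlapping peak with the highest −log10 p. Of intergenic regions called in the TXNIP KO, 9 and 13 were matched to a peak with its summit outside the region, and none in other libraries. Density used intergenic bases at the same distance, each given to its nearest gene end. Strand came from the RefSeq promoter table, which lacked it for the nearest gene of 522 regions.

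Shares were compared by two-sided exact sign-flip tests over 8 libraries (smallest p 0.00781), with Benjamini-Hochberg adjustment over 4 tests, and by two-sided exact permutation of 2 against 2 libraries (smallest p 0.333). The joining of peaks and the placing of regions were checked on simulated peaks and genes. The heat shock element search was planned for 100 bp around each summit. With no genome at hand, it was made in RefSeq promoter windows instead.

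Named regions were the 12 with the best worse rank by −log10 p in the second pair, the 6 called in most other libraries, the 6 strongest gained at 40 min, the 6 strongest in neither knockout list, the 3 nearest to and the 3 farthest from a gene end, and up to 6 genes of each list. Of these, 1 region is not reported here. The regions, lists and rules were chosen with earlier results of these data known. Alternatives were a −log10 q of at least 5, 50% overlap, equal list lengths, other positions and bounds, and leaving out libraries.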

Additional observations from a re-analysis of the deposited data

How the results depend on the processing

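With group means as units the differences between intergenic regions and others, gene ends, gene bodies and regions beyond 50 kb stayed at 2.61, 3.74, 1.91 and 2.64 points, with adjusted exact permutation p of 0.167, 0.25, 0.167 and 0.167. Among regions above the median of strength the differences to others and gene ends were 0.44 and -3.07 points, a reversal for gene ends. Below it the 4 differences were 0.77, 1.11, 0.32 and 1.43 points, with the call lost in each. Leaving out 1 library gave 2.98 to 4.40 points against gene ends, with the call lost at 2.98 to 3.90. With lists of equal length the share in the first WT pair differed from RT by 0.116 points (exact permutation p = 1), and the share at 4 h differed from RT by 0.0928 and from the first WT pair by 0.0696 points, both reversed, and the counts gained and lost became 22 and 13 at 40 min, 5 and 8 from RT to 4 h, and 4 and 8 from 40 min to 4 h, with 5 regions in all 8 libraries. With −log10 q of at least 5, the genotype difference over first pair regions was -0.139 points and 0 regions were lost at 40 min. With folds as deposited, 153 regions were higher and 657 lower in the knockout. With 1 library left out, gained and lost counts ranged from 111 to 246 and 1 to 28 at 40 min, 1 to 9 and 115 to 223 from RT to 4 h, and 0 to 1 and 271 to 450 from 40 min to 4 h, and 397 to 404 regions were in neither knockout list.

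Same-numbered libraries are not known to be paired: replicate deviations correlated at r = 0.195 between the knockout and the second pair, over regions. With a replicate block the 4 differences in shares were 9.79, -9.40, -19.2 and 0 points, with p of 0.5, 0.5, 0.5 and 1 (exact permutation test). With or without the block these comparisons could not pass the threshold, so an unchanged call was fixed in advance. Depth is unknown, so a region without a peak may be occupied below detection, most of all in the short 4 h lists. The cause of these changes was not tested. Of 167 alternatives over these and the other results, 127 kept the direction and the side of the threshold or stayed within the limits set. The 127 include alternatives of the comparisons that could not pass the threshold, for which the side was fixed in advance. Among them, the difference of the first WT pair to RT fell from 9.79 to 0.116 points with lists of equal length. The count is therefore no measure of how stable the results are.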
